A study of Rattus norvegicus with 145 samples.

Results

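Hepatic expression of 8 fatty acid oxidation genes was examined in rats gavaged with acetamide. The 8 genes, Cpt1a, Cpt2, Ehhadh, Acaa1a, Hadha, Pdk4, Vnn1 and Angptl4, are well-known targets of the nuclear receptor PPARα, and they were taken by gene symbol from the 17337 genes of the count tables. All 8 passed the filter on low counts in every data set. RNA-Seq of the left liver lobe covered 29 groups of 5 rats. Experiment A, a dose range-finding study, comprised male Hsd:WI Wistar rats aged 9 to 10 weeks gavaged for 7 days with acetamide at 30, 100, 300 and 1000 mkd (mg/kg/day) or with vehicle. Experiment B comprised male and female Crl:WI Wistar rats aged 8 to 10 weeks gavaged for 7 or 28 days with vehicle or with 300, 500, 750, 1000 and 1500 mkd. All rats were gavaged daily, control groups received the water vehicle, and livers were collected on day 8 or day 29 after an overnight fast. Experiment A is 1 data set (males day 8), and experiment B is 4, named by sex and day of collection. Experiments A and B differed in strain and supplier, which cannot be told apart from the experiment itself.

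PPARα is a nuclear receptor of hepatocytes that is activated by fatty acids, for example when fasting releases them from adipose tissue. It binds DNA as a dimer with RXR and turns on genes for the uptake and oxidation of fatty acids and for ketone body synthesis. Cpt1a, on the outer mitochondrial membrane, links long-chain fatty acids to carnitine and is the rate-controlling step of their entry, and Cpt2 releases them again inside the mitochondrion. Hadha is the alpha subunit of the mitochondrial trifunctional protein. Ehhadh and Acaa1a are the bifunctional enzyme and a thiolase of peroxisomal β-oxidation. Pdk4 inhibits pyruvate dehydrogenase and so spares glucose. Vnn1 is a pantetheinase, and Angptl4 is a secreted inhibitor of lipoprotein lipase.

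Libraries held 15449716 to 39986531 reads on genes. Levels are given as CPM, the reads of a gene as a rate of the library scaled with TMM factors computed over all rats together. The calls used the quasi-likelihood test of edgeR and required a change of 1.5-fold or more in either direction with an FDR (the p-value adjusted after Benjamini and Hochberg over all genes tested) not above 0.05. The TMM factor corrects for a few abundant genes taking a different part of the reads. Computed in experiment A alone, as for its dose tests, it was 0.856 to 0.976 in control rats and 1.06 to 1.91 at 1000 mkd. The factors over all rats, which scale the CPM, were 0.980 to 1.74 at 1000 mkd. All 12 hepatocyte markers examined were detected, among them Alb, whose level was 213816 CPM in control rats of experiment A (mean, n = 5).

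The promoters of the 4 members called at 1000 mkd in experiment A are shown so that their sequences can be read beside the values below. The sequences are from RefSeq (GRCr8) and cover the 250 bases before the annotated start, on the strand of the gene. They lie at chr1:209995910-209996159 (plus strand) for Cpt1a, chr5:127910819-127911068 (minus strand) for Cpt2, chr11:92746159-92746408 (plus strand) for Ehhadh and chr6:31907551-31907800 (plus strand) for Hadha. Capitals mark, in each, the window closest, on either strand, to a pair of AGGTCA hexamers in the same orientation with 1 base between them, the arrangement bound by PPARα with RXR. Where several windows were equally close, the one farthest from the start is marked.
Cpt1a: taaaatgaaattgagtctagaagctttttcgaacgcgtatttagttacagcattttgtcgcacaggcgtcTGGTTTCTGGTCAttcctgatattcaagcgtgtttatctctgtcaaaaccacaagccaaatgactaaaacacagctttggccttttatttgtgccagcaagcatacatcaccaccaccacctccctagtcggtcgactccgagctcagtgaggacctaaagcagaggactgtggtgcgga
Cpt2: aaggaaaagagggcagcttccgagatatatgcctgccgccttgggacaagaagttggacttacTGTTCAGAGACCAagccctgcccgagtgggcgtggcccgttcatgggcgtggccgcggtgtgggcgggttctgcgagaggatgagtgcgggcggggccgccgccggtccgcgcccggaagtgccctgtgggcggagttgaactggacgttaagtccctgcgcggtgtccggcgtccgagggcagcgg
Ehhadh: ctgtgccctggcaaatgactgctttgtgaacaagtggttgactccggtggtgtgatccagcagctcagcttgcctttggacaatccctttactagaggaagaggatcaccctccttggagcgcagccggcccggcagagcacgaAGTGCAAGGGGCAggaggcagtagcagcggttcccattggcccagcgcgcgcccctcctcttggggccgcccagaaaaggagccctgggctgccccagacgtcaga
Hadha: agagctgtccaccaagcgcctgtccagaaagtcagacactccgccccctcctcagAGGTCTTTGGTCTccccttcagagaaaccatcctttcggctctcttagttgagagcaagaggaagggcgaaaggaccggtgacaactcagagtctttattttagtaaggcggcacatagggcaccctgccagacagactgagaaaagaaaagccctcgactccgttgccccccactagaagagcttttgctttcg
The marked window differed from the pair at 3 of its 12 hexamer letters in Hadha and at 4 in Cpt1a, Cpt2 and Ehhadh. Of all 33469 promoters, 21.4% held a window with 3 or fewer mismatches and 74.5% held a window with 4 or fewer. On both strands of the 300 bases around the start (250 before, 50 after), a single AGGTCA was found in 16.2% of all promoters, the pair with up to 1 mismatch in each hexamer in 2.26%, the pair without mismatch in 0.0538%, and TGTTTAC, a forkhead motif, in 3.78%. None of these was found in the 7 members with a sequence in the table (0 of 7 for each), which leaves sites outside these 300 bases unexamined. Vnn1 was not among them.

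In experiment A, 4 of the 8 members were lower at 1000 mkd than in the control group, namely Cpt1a, Cpt2, Ehhadh and Hadha, and none was higher. The other members had negative estimates that did not pass the criteria. Of the 11323 genes tested, 21.4% were called in either direction and 7.45% were called lower, so that 4 of 8 members compares with 7.45%. The members were chosen with earlier results of these data known, so this comparison describes them and is no test of the set. The median log2 fold change was -0.70 over the members and 0.00093 over all genes tested. Estimates of the hepatocyte markers ran from -0.98 for Ttr to 0.28 for Apoa1, and all but that of Apoa1 were negative. A decrease at this dose was therefore not particular to the members. Overlap of control and treated rats is described below for the members only, and its share over all genes is not given here.

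Cpt1a was present at 544, 743, 747, 706 and 886 CPM in the 5 control rats and at 551, 149, 476, 286 and 457 CPM at 1000 mkd. Of the 5 treated rats, 4 were below every control rat, and the groups overlapped through 1 treated rat. The log2 fold change was -0.92 (SE 0.24, FDR 0.00674). Cpt2 separated the groups, with 234, 222, 207, 198 and 270 CPM in control rats and 156, 115, 149, 146 and 165 CPM in treated rats. All 5 treated rats were below all control rats, and the log2 fold change of -0.64 (SE 0.11, FDR 0.000421) had the smallest error among the members.

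Hadha was measured at 492, 678, 550, 605 and 594 CPM in control rats and at 468, 216, 401, 354 and 401 CPM in treated rats. The groups did not overlap (log2 fold change -0.67, SE 0.16, FDR 0.00316). Ehhadh, the peroxisomal enzyme, had 261, 283, 310, 463 and 428 CPM in control rats and 173, 29.8, 183, 201 and 202 CPM at 1000 mkd. Its groups did not overlap either, and 1 treated rat was far below the other four (log2 fold change -1.15, SE 0.36, FDR 0.0196). Acaa1a, which acts after Ehhadh in the same pathway, went from 360 ± 50.0 to 269 ± 89.0 CPM (mean ± SD, n = 5) and was not called (log2 fold change -0.42, SE 0.21, FDR 0.132), although 4 of 5 treated rats were below all control rats. Reads of Acaa1a can also fit its close paralog Acaa1b, and how the counting treated such reads is not given in the sources used here.

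Vnn1 was measured at 43.5 to 99.8 CPM in control rats and at 62.2, 12.3, 52.8, 33.3 and 57.6 CPM at 1000 mkd, and the difference was not called (log2 fold change -0.72, SE 0.30, FDR 0.0726). It passed without control rat 1 (-0.86, FDR 0.0417) or without the rat numbered 1 at 1000 mkd (-0.89, FDR 0.0345). Pdk4 varied more within groups than between them. Its control rats had 14.2, 10.4, 32.0, 245 and 113.5 CPM and its treated rats 12.4, 67.6, 52.2, 58.7 and 64.2 CPM, so that the lowest and the highest rat were both control rats (log2 fold change -0.72, SE 0.67, FDR 0.438). Angptl4 was similar in both groups, at 180 ± 74.9 and 169 ± 60.3 CPM (log2 fold change -0.11, approximate 95% interval -0.87 to 0.66, FDR 0.861).

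**Figure D1:**
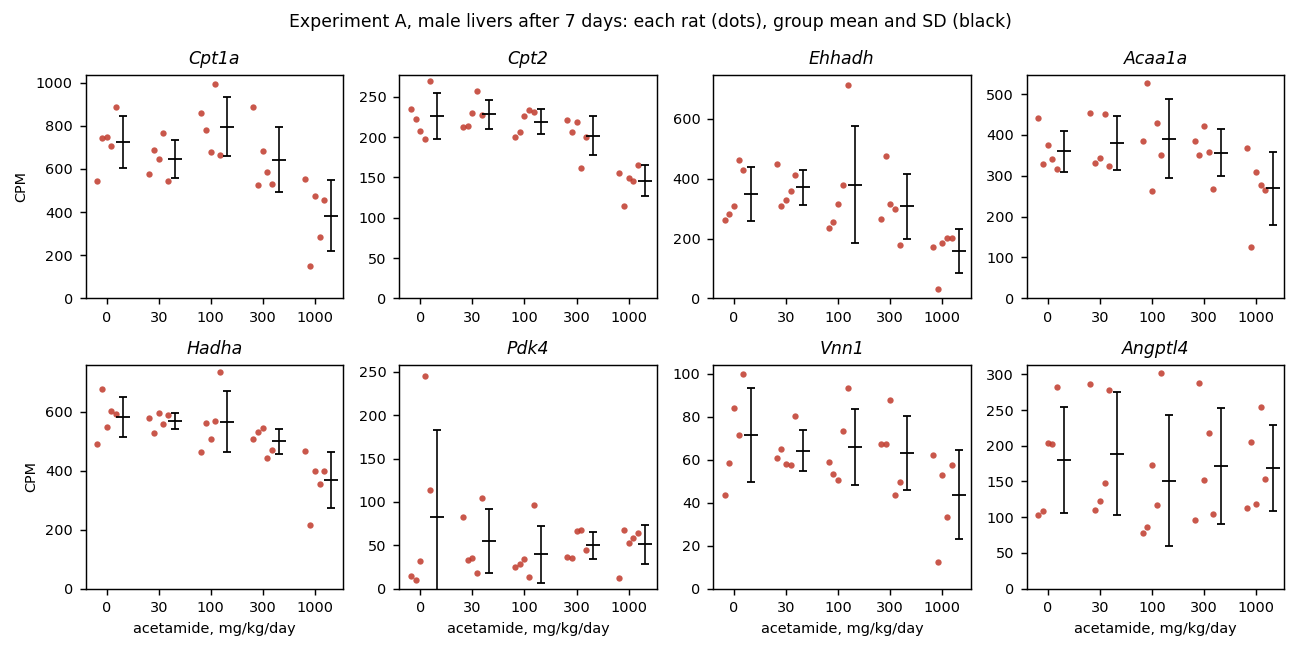
Expression of the 8 genes in experiment A, in CPM (vertical axis) by acetamide dose in mg/kg/day (horizontal axis). Dots are rats, 5 per group, and black marks are the group mean with its SD, cut at 0. For Cpt2, Ehhadh and Hadha all rats at 1000 mg/kg/day lie below all control rats, whereas the Pdk4 control rats spread from 10.4 to 245 CPM. The share of all genes that separate in this way is not given here, and 21.4% of genes were called at this dose.

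A single rat of the 1000 mkd group stood apart. It was the lowest of the 5 for 6 of the 8 members and the highest for Pdk4. It had the largest TMM factor (1.91 in experiment A alone, 1.74 over all rats) and the lowest sum of the hepatocyte markers (89857 CPM). Without this rat 2 of 8 members were called, Cpt1a and Ehhadh. Cpt2 and Hadha then fell under the 1.5-fold criterion, with log2 fold changes of -0.56 (FDR 0.0013) and -0.53 (FDR 0.00506). Cpt2 was also under 1.5-fold without control rat 5 (-0.57, FDR 0.00141). When only the control and 1000 mkd rats were fitted, Cpt2 and Hadha kept their calls, whereas Cpt1a had an FDR of 0.0518 and Ehhadh of 0.0624 at nearly the same estimates (-0.93 and -1.16).

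These decreases are relative to the typical gene. With library size only and no TMM factor, the median log2 fold change of all genes at 1000 mkd was 0.58, 97.2% of the calls were increases instead of 65.2%, and 0 of 8 members were called. As a part of all reads, Ehhadh then had a log2 fold change of -0.68 and Cpt1a of -0.45, whereas Cpt2 was at -0.09, Acaa1a at 0.06 and Angptl4 at 0.52. On this scale the members ranged from -0.68 to 0.52, and all 8 lay below the median gene at 0.58.

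Cell type markers moved in the same livers, where 1580 of all 11323 genes tested were called higher and 844 lower. The hepatocyte markers summed to 285300 to 375810 CPM in control rats and to 89857 to 275491 CPM at 1000 mkd, and 5 of 12 were called lower. Macrophage markers were called higher for 7 of 11, with sums of 624 to 1781 against 1517 to 2697 CPM. T and NK cell markers rose for 8 of 10 tested (27.2 to 33.3 against 46.7 to 87.0 CPM) and endothelial markers for 4 of 7 (84.5 to 184 against 148 to 285 CPM). Erythroid markers fell for 3 of 5 (227 to 313 against 23.1 to 110 CPM). Neutrophil markers fell for 2 of 3 tested (3.20 to 10.8 against 1.56 to 2.59 CPM), and Mpo and Camp never exceeded 4 counts in any rat and Elane 3. Stellate cell markers rose for 1 of 8 (254 to 594 against 447 to 645 CPM), cholangiocyte markers were called for 0 of 5, and adipocyte markers rose for 1 and fell for 1 of 4 (105 to 165 against 83.5 to 109 CPM). The sums are weighted towards their most abundant genes. In control rats and at 1000 mkd, Alb had means of 213816 and 114148 CPM, Cd4 of 22.1 and 39.2 CPM and Cidec of 101 and 66.2 CPM. These genes made up most of the hepatocyte, T and NK cell and adipocyte sums. Of the hepatocyte markers only Apoa1 had a positive estimate (0.28, not called). Adipoq, Plin1, Lep and Retn never exceeded 6 counts. Fewer hepatocytes and less RNA per hepatocyte cannot be told apart in bulk liver, and the part of the marker shifts in the members' values was not tested.

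At 30, 100 and 300 mkd in experiment A, 0 members were called, as were 0% of all genes. By edgeR, 0 members had an unadjusted p under 0.05 at these doses and DESeq2 called 0 as well, and the number of genes with an unadjusted p under 0.05 was 324, 232 and 218. At 300 mkd all 8 estimates were negative, with a median of -0.18, and the largest was that of Pdk4 at -0.73 (SE 0.67). Cpt2 had 222, 206, 219, 162 and 200 CPM at 300 mkd, 1 rat being below all control rats. As a trend over all doses, 6 of 8 members passed an FDR of 0.05 in experiment A, with slopes per 1000 mkd of -0.94 for Cpt1a, -0.66 for Cpt2, -1.26 for Ehhadh, -0.50 for Acaa1a, -0.68 for Hadha and -0.66 for Vnn1 (SE 0.22, 0.09, 0.32, 0.18, 0.13 and 0.25). Of all genes, 45.9% passed the same test. The trend rested on the highest dose, since without the 1000 mkd group 0 members passed.

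In experiment B no member was called at any dose, in either sex or at either time-point. This covers 160 tests in 20 comparisons, in which 12 had an unadjusted p under 0.05 and 1 had an FDR under 0.05 by edgeR. DESeq2 called 1 member in 1 of the 20, males day 29 at 750 mkd. The estimates lay between -0.74 and 1.00. At 1500 mkd, with 0 of 8 members called in each data set, the males had 0.177% of all genes called on day 8 and 4.91% on day 29, and the females 0.705% and 13.1%. At the lower doses the members were again at 0 of 8, against genes called at any of these doses of 0% (day 8) and 3.03% (day 29) for males and 1.37% and 1.62% for females.

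The member that came closest to a call was Cpt1a in males day 29. It was measured at 783, 784, 849, 1014 and 1057 CPM in control rats, at 641, 607, 636, 533 and 669.5 CPM at 1000 mkd and at 442, 668, 575, 903 and 504 CPM at 1500 mkd. All 5 rats at 1000 mkd and 4 of 5 at 1500 mkd were below all control rats. The log2 fold changes were -0.51 (SE 0.16, FDR 0.0624) and -0.52 (SE 0.16, FDR 0.0497), the second being a 1.43-fold decrease under the 1.5-fold criterion. At 1500 mkd it was called without the rat at 903 CPM (-0.69, FDR 0.00908) or without control rat 1 (-0.62, FDR 0.0411), and without a filter on low counts (-0.59, FDR 0.0373). The estimates at 300, 500 and 750 mkd, against the same control rats, were -0.35, -0.35 and -0.58. These control rats had a mean of 897 CPM, above the mean of every treated group. They are labelled as experiment 1 but match experiment B by title, strain and age, and all dose results of males day 29 rest on them.

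Vnn1 had positive estimates at 1500 mkd in all 4 data sets of experiment B and was called in none. In females day 8 it was at 25.7, 31.7, 33.4, 34.9 and 71.4 CPM in control rats and at 97.3, 75.2, 78.2, 56.7 and 79.8 CPM at 1500 mkd. Here 4 of 5 treated rats were above every control rat, and 1 control rat lay within the treated range (log2 fold change 0.97, SE 0.35, FDR 0.155). The estimates were 0.60 (SE 0.27, FDR 0.345) in males day 8, 0.43 (SE 0.30, FDR 0.363) in males day 29 and 0.55 (SE 0.33, FDR 0.258) in females day 29.

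Over all doses of experiment B, the trend passed an FDR of 0.05 for 1 member in males day 29 and for 1 in females day 8. These were Cpt1a, with a slope of -0.31 per 1000 mkd (SE 0.10, FDR 0.0203), and Vnn1, with a slope of 0.68 (SE 0.20, FDR 0.045). The share of all genes was 24.5% in males day 29 and 5.44% in females day 8. In males day 8 and females day 29, 0 of 8 members passed, against 2.52% and 27.3% of genes. Leaving out any replicate number of the females day 8 groups ended the Vnn1 call.

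**Figure D2:**
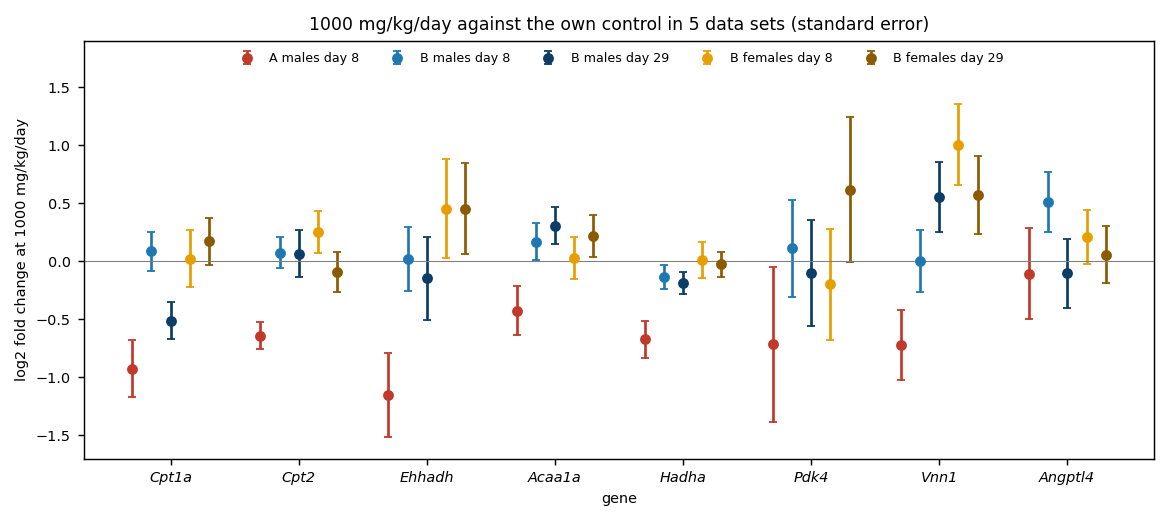
Log2 fold change of the 8 genes at 1000 mg/kg/day against the control of the same data set (vertical axis), by gene (horizontal axis), in the 5 data sets. Points are edgeR estimates with their standard errors, and all 8 estimates of experiment A are negative, whereas those of experiment B lie on both sides of 0.

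Males were sampled on day 8 in both experiments, which allows the response to the same dose to be compared at 300 and 1000 mkd. At 1000 mkd the response of Cpt1a and Cpt2 differed between the experiments, with a lower response in experiment A, and so 2 of 8 members passed an FDR of 0.05 where 7.48% of all 11579 genes did. Cpt1a had a log2 fold change of -0.92 in experiment A and of 0.09 in experiment B, where control rats had 454 to 960 CPM and rats at 1000 mkd 634 to 1032 CPM. The difference of the responses was -1.03 (SE 0.30, FDR 0.0273). Cpt2 went from 188 ± 30.9 to 199 ± 19.2 CPM in experiment B (log2 fold change 0.08, SE 0.13), and the difference was -0.73 (SE 0.18, FDR 0.0116). By median, hepatocyte markers summed to 306420 CPM in control rats and to 166005 CPM at 1000 mkd in experiment A. In males day 8 of experiment B these medians were 257024 and 249075 CPM. The part of the marker shifts in the differences of the members was not tested.

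The other 6 differences at 1000 mkd were also negative but did not pass. Hadha was nearest, with a difference of -0.55 (approximate 95% interval -0.91 to -0.19, FDR 0.0562), and it passed by DESeq2 (FDR 0.0396) and in 5 of 20 fits that left out 1 rat. These were control rat 1 of either experiment (FDR 0.0489 in A, 0.0256 in B), the rats numbered 1 and 3 at 1000 mkd in experiment A (FDR 0.0153 and 0.0328) and the rat numbered 2 at 1000 mkd in experiment B (FDR 0.0311). In experiment B its rats at 1000 mkd had 435 to 520 CPM against 480 to 687 CPM in control rats. Ehhadh had the most negative estimate of all, -1.18 (-2.09 to -0.27, FDR 0.103). In experiment B its levels overlapped fully, at 393 to 744 CPM against 400 to 688 CPM. The intervals were -1.13 to -0.09 for Acaa1a (FDR 0.145), -1.54 to 0.08 for Vnn1 (FDR 0.273), -1.56 to 0.31 for Angptl4 (FDR 0.436) and -2.43 to 0.73 for Pdk4 (FDR 0.551), so that for Vnn1, Angptl4 and Pdk4 a difference of either sign is within the error.

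These differences too depend on the scale. With library size only, 0 of 8 members passed, and the difference was -0.59 for Cpt1a (FDR 0.0884) and -0.23 for Cpt2 (FDR 0.275). Leaving out 1 rat ended the call of Cpt1a in 5 of 20 cases, in which the difference was between -0.95 and -0.80, whereas Cpt2 kept its call in all 20. The 5 were the rats numbered 2 and 4 at 1000 mkd in experiment A, without which FDR was 0.0739 and 0.0682, and in experiment B control rat 5 and the rats numbered 3 and 4 at 1000 mkd, without which FDR was 0.0571, 0.0612 and 0.0625. At 300 mkd 0 of 8 members and 0% of all genes differed between the experiments by edgeR (0 members at an unadjusted p under 0.05, and 0 by DESeq2), and 7 of 8 intervals of the difference lay within -1.02 to 0.85, that of Pdk4 being -2.48 to 0.68. Among control rats of experiments A and B, 0 of 8 members were called and 1.29% of genes were, with 1 member, Cpt2, at an unadjusted p under 0.05 (0.0369) and 0 called by DESeq2.

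**Figure D3:**
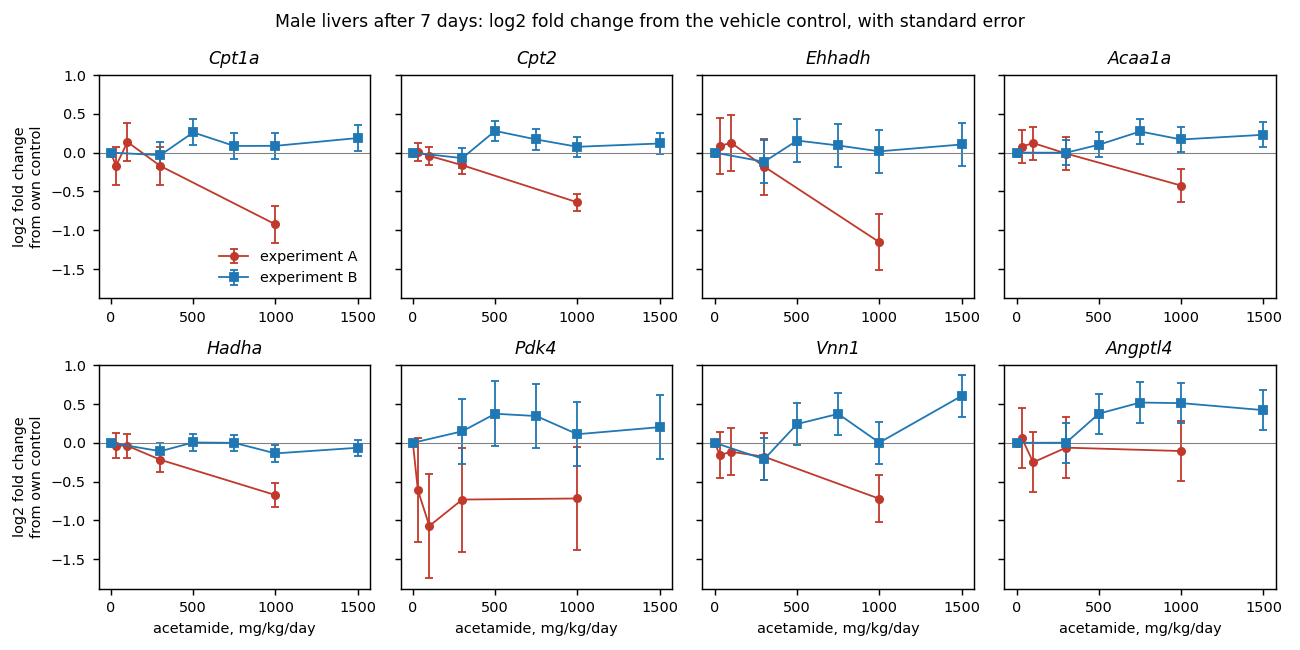
Log2 fold change from the own vehicle control (vertical axis) by acetamide dose in mg/kg/day (horizontal axis) for the 8 genes in male livers after 7 days, in experiment A (circles) and experiment B (squares). Bars are standard errors. At 300 mg/kg/day the curves lie within each other's errors for most genes, and at 1000 mg/kg/day Cpt1a is at -0.92 in experiment A and 0.09 in experiment B.

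The other genes of the pathway were examined from 8 lists that also hold the members, and without the members 66 genes were tested in males day 8 of experiment A. Of these, 33 were lower at 1000 mkd (7.45% of all genes were) and 1 was higher, with a median log2 fold change of -0.65. The lists too were chosen with earlier results of these data known, so these shares are a description and no test. In males day 8 of experiment B, 0 of 66 were called at 1000 mkd, as were 0 of all 11304 genes tested, and the median of the 66 was -0.04. The response differed between the experiments for 17 of the 66, where 7.48% of all 11579 genes did. All 17 were lower in experiment A. The median difference was -0.60 over the 66 and -0.01 over all genes tested. The part of the hepatocyte marker shifts in these differences was not tested either. The scatter of both responses shows 57 of the 66 below 0 in experiment A and 37 in experiment B.

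By function, mitochondrial β-oxidation had 13 of 15 tested genes lower in experiment A at 1000 mkd, Hadha included. Decr1, which prepares unsaturated fatty acids for oxidation, fell most, from 386 ± 47.6 to 158 ± 70.1 CPM (log2 fold change -1.29, FDR 0.001). Peroxisomal β-oxidation fell for 8 of 15 genes, Ehhadh having the largest decrease. All 4 genes of ketone body synthesis fell, led by Bdh1, which interconverts the ketone bodies (log2 fold change -1.12, FDR 0.00699). Fatty acid uptake, binding and activation fell for 5 of 12 genes, most of all Acsl1, which activates long-chain fatty acids to their CoA esters and went from 2361 ± 297 to 895 ± 426 CPM (log2 fold change -1.40, FDR 0.000566).

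In the carnitine shuttle 3 of 7 genes fell and 1 rose. The gene that rose was Cpt1b, the muscle form of Cpt1a, at 2.24 ± 1.04 and 4.29 ± 0.65 CPM (log2 fold change 0.92, FDR 0.0329). Omega-oxidation fell for 2 of 5 genes, with Cyp4a8 going from 15.1 ± 17.3 to 2.64 ± 1.36 CPM (log2 fold change -2.53, SE 0.89, FDR 0.0341). The Cyp4a genes are close paralogs, and how the counting treated reads that fit several of them is not given in the sources used here. Of the secreted proteins and fuel switching genes 2 of 8 fell, Pdk2, another pyruvate dehydrogenase kinase, having the largest decrease (log2 fold change -0.65, FDR 0.0266). The receptor and its cofactors were called for 0 of 8 in experiment A by edgeR, Ppara having a log2 fold change of -0.47 (SE 0.35, FDR 0.32).

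In experiment B at 1500 mkd, the pathway without the members had 0 of 66 genes called on day 8 and 2 of 66 lower on day 29 in males. In females it had 0 of 64 called on day 8 and, on day 29, 5 lower and 2 higher of 64. With 4.91% of all genes called in males day 29 and 13.1% in females day 29, both day 29 counts were below the share of all genes, and the genes named next are given as single values. Those of males day 29 were Rxra, the dimer partner of PPARα, at 140 ± 15.9 and 51.7 ± 16.2 CPM (log2 fold change -1.41, FDR 0.0088), and the peroxisomal oxidase Acox3 (log2 fold change -0.80, FDR 0.0199). At 1000 mkd in males day 29, where 311 of 11279 genes were called, 3 of 66 were lower. These were Ppara itself, at 41.1 ± 12.5 and 18.8 ± 4.90 CPM (log2 fold change -1.10, SE 0.26, FDR 0.0274), Rxra (log2 fold change -1.29, FDR 0.025) and Acox3 (log2 fold change -0.78, FDR 0.0356), and they are named here after their values were seen. Against the same control rats Ppara was not called at 1500 mkd, at 30.3 ± 11.8 CPM (log2 fold change -0.41, SE 0.26, FDR 0.293). In females day 29 the fatty acid transporter Cd36 had the largest decrease (log2 fold change -1.30, FDR 0.0242) and the coactivator Ppargc1a the largest increase (log2 fold change 1.10, FDR 0.0475). The mitochondrial dehydrogenase Acads fell in that group (log2 fold change -0.83, FDR 0.000882), as did Pdk2 (log2 fold change -0.62, FDR 0.0166), and Cpt1b rose (log2 fold change 0.83, FDR 0.00608). Hepatocyte markers in females day 29 summed to 196110 to 388041 CPM in control rats (median 234881) and to 95364 to 194433 CPM at 1500 mkd (median 179836). At that dose 0 of 8 members were called and 7 of 8 had negative estimates. A link between the marker sums and the members was not tested.

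**Figure D4:**
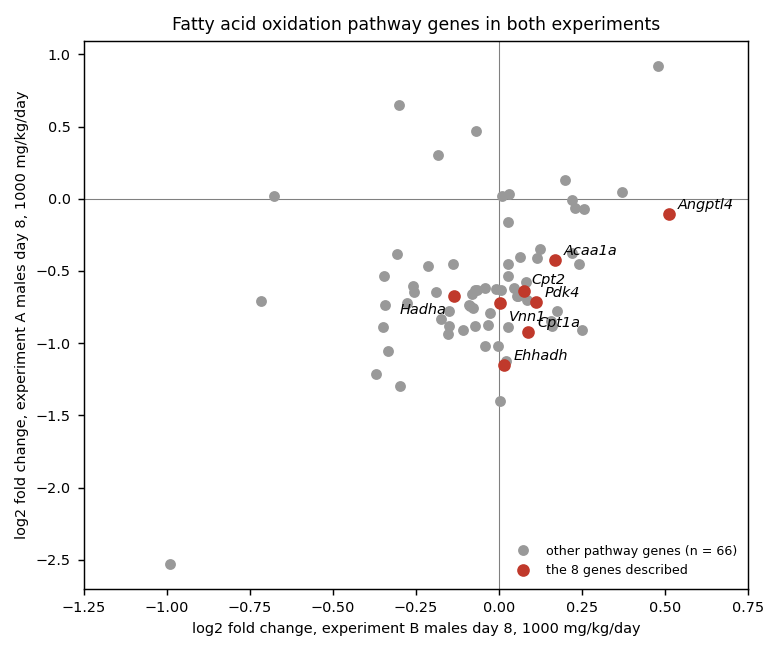
Log2 fold change at 1000 mg/kg/day in males day 8 of experiment A (vertical axis) against experiment B (horizontal axis). Grey points are 66 other genes of fatty acid uptake, oxidation and ketone body synthesis, and red points are the 8 genes described. In experiment A 57 of the grey points lie below 0, and in experiment B 37 do.

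Gene lists of other processes gave a comparison. Of 15 cell cycle genes, 14 rose at 1000 mkd in experiment A (median log2 fold change 1.89), the largest increase being that of Mcm5 (2.53, FDR 0.000778). At that dose 1580 of all 11323 genes tested were called higher and 844 lower. The fasting and glucocorticoid response list was called for 0 of 12 genes, with a median of -0.67, and the circadian clock list for 0 of 13, with a median of -0.30.

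Among control rats of experiment B, 3 of the 8 members differed between the sexes on day 8, where 8.37% of all genes did. Pdk4 was at 31.2 to 65.1 CPM in males and at 76.2 to 513 CPM in females, with all 5 females above all males (log2 difference 2.48, SE 0.49, FDR 0.000194). Angptl4 was at 97.7 to 175 CPM in males and at 164 to 484 CPM in females, 4 of 5 females being above all males (log2 difference 1.26, SE 0.26, FDR 0.000279). Vnn1 was lower in females, at 25.7 to 71.4 CPM against 52.6 to 136 CPM in males (log2 difference -1.09, SE 0.32, FDR 0.0162). The fuel-switching kinase and the lipase inhibitor were thus higher in females and the pantetheinase lower, while the 5 enzymes of β-oxidation had differences between -0.05 and 0.39 that were not called. The count was 2 without rat 1 of either sex.

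On day 29 the sexes had 0 of 8 members called among control rats, against 11.6% of genes. The differences were 1.34 for Pdk4 (SE 0.58, FDR 0.098), 0.71 for Angptl4 (SE 0.28, FDR 0.0715) and -0.61 for Vnn1 (SE 0.33, FDR 0.199), with overlapping ranges for each, and 1 member was called without female rat 1. Between day 29 and day 8, 0 of 8 members were called in control males, against 0.00872% of genes, and 0 of 8 in control females, against 0.952%. The tool for these counts was edgeR, with 4, 3 and 1 members at an unadjusted p under 0.05 and 0 members called by DESeq2 in each. The 1 member in females was Cpt1a, which had 902 to 1234 CPM on day 8 and 627 to 813 CPM on day 29 without overlap (log2 difference -0.50, SE 0.23, FDR 0.208). By the median, Pdk4 in control rats was highest in females day 8 (223 CPM), followed by females day 29 (116 CPM), males day 29 (47.7 CPM), males day 8 (42.4 CPM) and experiment A (32.0 CPM), and neighbours in this order overlapped.

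The response to 1500 mkd did not differ detectably between sexes or time-points for any member. On day 8 between sexes 0 of 8 members and 0% of genes passed an FDR of 0.05, and on day 29 0 of 8 and 0.0688%. Between day 29 and day 8, 0 of 8 members passed in males, against 0% of genes, and 0 of 8 in females, against 0.00858%. The most different member was Cpt1a between males day 29 and males day 8 (-0.74, approximate 95% interval -1.21 to -0.27, FDR 0.988). Intervals reached from -2.05 to 1.66 for Pdk4, the noisiest member, which leaves room for large differences of its response. Over these 4 comparisons 1 member had an unadjusted p under 0.05, that of Cpt1a, and DESeq2 also found 0 members in each comparison.

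The members differed in how much they varied between rats of the same group. The SD on the log2 scale within groups, over all 29 groups, was 0.94 for Pdk4, 0.63 for Ehhadh, 0.53 for Vnn1, 0.48 for Angptl4, 0.34 for Cpt1a, 0.29 for Acaa1a, 0.26 for Cpt2 and 0.19 for Hadha. After the mean of each group was removed, the 28 pairwise correlations of members ranged from -0.20 to 0.62 with a median of 0.33. The highest was that of Ehhadh with Hadha and the lowest that of Acaa1a with Pdk4. Pdk4 and Angptl4 correlated at 0.43.

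The genes most like the mean of the members within groups, among 11066 genes, were Ech1 (r = 0.83), Colq (0.80), Eci1 (0.76), Creb3l3 (0.76) and Slc25a20 (0.75). Ech1 and Eci1 are isomerases that handle double bonds of fatty acids in oxidation, Slc25a20 carries acylcarnitines across the inner mitochondrial membrane, Creb3l3 is a fasting-responsive transcription factor of the liver, and Colq is the collagen tail of acetylcholinesterase. These correlations are over all rats of the 29 groups, which share library preparation and scaling. Values in experiment A follow for all of these genes but Colq, which is in none of the gene lists. At 1000 mkd in experiment A, Ech1 went from 422 ± 27.6 to 209 ± 86.9 CPM (log2 fold change -1.02, FDR 0.00263), Eci1 from 499.5 ± 100.9 to 272 ± 86.5 CPM (log2 fold change -0.89, FDR 0.00851), Slc25a20 from 212 ± 10.5 to 134 ± 34.1 CPM (log2 fold change -0.67, FDR 0.00265) and Creb3l3 from 796 ± 81.8 to 523 ± 93.8 CPM (log2 fold change -0.62, FDR 0.00168).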

How the data were processed

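RNA-Seq counts from the left liver lobe were used, in 5 data sets of 29 groups. The authors prepared stranded mRNA libraries, sequenced 75 bp single-end reads, trimmed them with Trimmomatic, aligned them to UCSC Rn6 with Bowtie2 and deposited raw HTSeq counts per gene, without normalization. Their versions and the strand setting are not given in the sources used here. HTSeq summary lines, present in experiment B (35.5 to 67.1% of the counts of a rat), were left out. Vehicle males collected on day 29 are labelled as experiment 1 but match experiment B by title, strain and age. Each rat had 15449716 to 39986531 reads on genes.

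All groups of a data set were fitted together with edgeR 4.0.16 in R 4.3.3 (filterByExpr, TMM, quasi-likelihood F-test), and all adjusted p are from edgeR unless DESeq2 1.42.0 is named. Response differences, slopes and control differences used the same test. Each standard error is the absolute log2 fold change divided by the square root of F, and approximate 95% intervals assume normality. Log2 CPM used a prior count of 2. The fit was tested on simulated counts. Alternatives were DESeq2's size factors and Wald test, no filter, a fit with replicate number as a block, a fit to 1 dose and its control, leaving out rats, rank of dose, no highest dose and, added after seeing the data, library size only.

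The members and lists were chosen with earlier results of these data known. Named beside the members were, per list at the highest dose, the called genes with the largest increase and decrease, and the 5 genes most correlated with the members. The account of the rat that stood apart was chosen after its values were seen. Littermates or cage-mates are not identified, so p-values measure the spread between rats. No 2 rats had identical counts.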

Additional observations from a re-analysis of the deposited data

Results flagged for a closer look

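Of 80 sets of 5 values (each of the 8 genes in each control and highest-dose group), 8 held an outlying rat. Its gap to the nearest neighbour took up more of the set's range than Dixon's 95% critical value for 5 samples. That value is passed in about 1 in 20 sets of independent, normally distributed values. The 8 genes were measured in the same rats and are partly correlated, and CPM need not be normal, so the count cannot be compared with this rate. At 1000 mkd in experiment A the outlying rats were the lowest Ehhadh rat (gap over range 0.830) and the lowest Pdk4 rat (0.721). At 1500 mkd in experiment B they were the highest Ehhadh rat in males day 8 (0.782), males day 29 (0.737) and females day 29 (0.746), the highest Pdk4 rat in males day 8 (0.777) and the highest Angptl4 rat in males day 29 (0.786). Among control rats it was the highest Vnn1 rat of females day 8 (0.800).

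The response to 1000 mkd differed between experiments A and B in males day 8 for Cpt1a (difference of the log2 fold changes -1.03, FDR 0.0273) and Cpt2 (-0.73, FDR 0.0116), by an interaction term in edgeR. Of all 11579 genes tested, 7.48% passed the same test. With library size only, neither gene passed (edgeR FDR 0.0884 for Cpt1a and 0.275 for Cpt2). Leaving out a single rat ended the call of Cpt1a in 5 of 20 fits, whereas Cpt2 kept its call in all 20.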

How the results depend on the processing

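Library size only, an alternative added after seeing the data, gave 0 members called at 1000 mkd in experiment A, 0 that differed between the experiments, 1 called at 1500 mkd in females day 29, and trends for 2 in experiment A, 1 in females day 29 and 2 in males day 29. It turned the sign of Acaa1a (0.057) and Angptl4 (0.52) in experiment A, of Acaa1a (0.17), Angptl4 (0.36), Cpt1a (0.11), Cpt2 (0.16), Ehhadh (0.36), Hadha (0.20) and Pdk4 (0.23) in females day 29, of Acaa1a (0.16) and Hadha (0.11) in females day 8, and of Hadha in males day 29 (0.012) and males day 8 (0.074). A fit of only the control and tested dose called 2 members in experiment A. DESeq2 called 1 member at 750 mkd in males day 29, and trends for 1 in females day 29 and 2 in males day 29, and its size factors gave a trend for 1 in females day 29. Without a filter, 1 member was called at 1500 mkd in males day 29, with trends for 2 in males day 29 and 0 in females day 8. Rank of dose gave 2 trends in experiment A. Without the highest dose, 0 trends passed in experiment A, 0 in females day 8 and 2 in males day 29. Cpt2 in males day 29 was at -0.023 by DESeq2, -0.021 with its size factors, -0.058 without a filter and -0.033 with the control and tested dose only. The cause of these shifts was not tested.

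Leaving out rats gave 2 to 5 members called at 1000 mkd in experiment A, 1 to 3 that differed between the experiments, 0 to 1 called at 1500 mkd in males day 29, 0 to 1 between control sexes on day 29, and trends for 0 to 1 in females day 29, 0 in females day 8 and 0 to 2 in males day 29. At the highest dose the sign turned within the range of Angptl4 (-0.29 to 0.12) and Pdk4 (-1.01 to 0.24) in experiment A, of Ehhadh (-0.25 to 0.24), Hadha (-0.12 to 0.038) and Pdk4 (-0.0097 to 0.35) in males day 8, of Cpt2 (-0.16 to 0.14) and Pdk4 (-0.12 to 0.50) in males day 29, of Acaa1a (-0.14 to 0.052) and Pdk4 (-0.83 to 0.042) in females day 8, and of Angptl4 (-0.20 to 0.33), Ehhadh (-0.60 to 0.14) and Pdk4 (-0.55 to 0.37) in females day 29. For the difference between the experiments it turned for Pdk4 (-1.14 to 0.11).

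Replicate numbers gave no clear pairing of the rats. In experiment A 21 of 50 pairs with the same number had correlated deviations over 0.1. Their median correlation was 0.027, against -0.0065 for pairs with other numbers. With 5 replicate numbers, 5 of 25 rats of experiment A correlated best with their own number, and in each data set of experiment B 2 to 7 of 30 did. With a replicate block 4 members were called at 1000 mkd in experiment A, 3 differed between the experiments, 0 had a trend in females day 8, and Angptl4 was at 0.0080 in females day 29. Rats, not reads, limit the precision, above all for Pdk4.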
